A study of Mus musculus with 45 samples.

Results

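The genes described here are 10 genes that mark reactive astrocytes: Gfap, Vim, Lcn2, Serpina3n, Cd44, Osmr, Timp1, Steap4, S1pr3 and Aspg. The rule that names them uses no measured value, though earlier results of these data were known when they were chosen. All 10 had a row in each of 3 tables, which list 43411 genes for brain tissue, 47643 for sorted adult microglia and 55450 for microglia sorted from cultured slices. The main comparison was brain tissue from wild-type (WT) C57BL/6 mice aged 10 to 15 weeks, taken 24 h after 1 mg/kg lipopolysaccharide (LPS, 4 libraries) or from mice given no treatment and no injection (4 libraries). As the contrast, microglia were sorted (live, CD11b high, CD45 intermediate) from WT C57BL/6 mice of that age 24 h after 1 mg/kg LPS (4 libraries) or PBS (4 libraries). Microglia with the same sort phenotype came from neonatal C57BL/6 brain slices kept 2 weeks in culture and then given medium alone (9 libraries), 50 ng/mL TNF (11 libraries) or 20 ng/mL GM-CSF (9 libraries) for 24 h, each library from 2 to 3 pooled slices. LPS is a bacterial outer membrane component and was given into the peritoneum. The study's methods give the adult samples of each group as coming from independent mice. For the slices neither labels nor methods tie a library to an animal, so p-values there measure the spread between pools of slices. The study pooled these slice samples from 4 independent experiments. No label ties a library to an experiment, and the main fit has no term for it.

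Astrocytes are the main supporting glia of the brain, and they answer infection, injury or systemic inflammation with a change called reactivity. Reactive astrocytes build more intermediate filament, secrete acute phase proteins and protease inhibitors, and display more cytokine receptors, with signals from microglia and the gp130 and STAT3 pathway among the known drivers. Few of the genes that mark this state belong to astrocytes alone: Lcn2 is also made by neutrophils and endothelium, and Vim and Cd44 by many immune cells. The sorted microglia show which members a microglial library can contain.

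The members fall into 4 roles. Gfap (chr11:102887336-102900912) and Vim (chr2:13573927-13582826) encode the intermediate filament proteins of the astrocyte skeleton. Lcn2 (chr2:32384633-32388252) encodes lipocalin 2, which binds bacterial siderophores, Serpina3n (chr12:104406729-104414329) a secreted serine protease inhibitor, and Timp1 (chrX:20870166-20874735) a secreted inhibitor of matrix metalloproteinases. Osmr (chr15:6813577-6874969) encodes the oncostatin M receptor chain that pairs with gp130, Cd44 (chr2:102811141-102901665) the hyaluronan receptor, and S1pr3 (chr13:51408639-51422797) a receptor for sphingosine 1-phosphate. Steap4 (chr5:7960457-7982213) encodes a metalloreductase and Aspg (chr12:112106679-112127559) an asparaginase. Positions are gene spans of the GENCODE annotation on mm10, the build the labels name, and all 10 are protein coding.

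Since several of these genes moved together in brain tissue, the 250 bases before the RefSeq start sites (GRCm38.p6) were read for motifs of factors known to act in inflammation. The sequences of Serpina3n and Timp1, which rose in brain tissue, and of Steap4, the member with most matches, are shown 5′ to 3′ on the coding strand. Capitals mark motif matches.
Serpina3n, chr12:104406458-104406707, plus strand: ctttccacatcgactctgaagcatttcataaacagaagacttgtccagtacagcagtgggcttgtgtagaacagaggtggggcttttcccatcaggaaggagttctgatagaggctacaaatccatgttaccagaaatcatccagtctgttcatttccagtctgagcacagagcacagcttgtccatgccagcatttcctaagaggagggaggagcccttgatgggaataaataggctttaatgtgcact
Timp1, chrX:20869916-20870165, plus strand: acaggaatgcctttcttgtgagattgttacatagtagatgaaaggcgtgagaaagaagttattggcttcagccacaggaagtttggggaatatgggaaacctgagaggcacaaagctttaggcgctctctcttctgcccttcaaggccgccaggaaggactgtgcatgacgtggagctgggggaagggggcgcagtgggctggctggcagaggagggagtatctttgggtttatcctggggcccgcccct
Steap4, chr5:7960222-7960471, plus strand: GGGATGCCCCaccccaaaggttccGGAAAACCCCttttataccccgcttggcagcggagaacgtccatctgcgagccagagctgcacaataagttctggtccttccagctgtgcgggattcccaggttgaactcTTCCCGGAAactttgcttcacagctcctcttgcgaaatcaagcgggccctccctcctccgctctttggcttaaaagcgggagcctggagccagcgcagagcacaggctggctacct
In Steap4 the capitals are 1 STAT match, TTCCCGGAA, from 116 to 108 bases before the start, and 2 kappa-B matches, GGGATGCCCC and GGAAAACCCC, from 250 to 241 and from 226 to 217 bases before it. The STAT motif (TTCNNNGAA) stood in 1 of the 10 member promoters against 7.02% of 32851 promoters of the same length, and the kappa-B consensus in 2 (Steap4 and Vim) against 3.90%. The AP-1 motif (TGANTCA) and the C/EBP motif (TTGCNNCAA), in 6.75% and 1.74% of promoters, were in no member's window. Both strands were searched, and a match is a description of the letters, not a binding site.

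In brain tissue 24 h after LPS, 5 members rose: Gfap, Lcn2, Serpina3n, Osmr and Timp1. Cd44, S1pr3 and Aspg were tested and did not pass, Steap4 was too low for the test, and Vim was listed at 0 in all 8 libraries. Thus 8 of 10 members passed the filter on low counts, 5 of those were called higher and 0 lower. Calls needed both an adjusted p under 0.05 and a change of over 1.5-fold. Of all 15083 genes tested 479 (3.18%) were called, 396 (2.63%) of them higher and 83 (0.55%) lower. Lcn2 and Timp1 reached the filter only in the LPS libraries, so their place among the tested members already rested on a difference, and the count of 5 is a description of the members and not support for the list. The groups did not overlap, with LPS higher, for 9.09% of all genes. Levels are CPM, the counts of a gene per 1000000 counts of its library, scaled by edgeR's TMM factors.

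Gfap, the classic astrocyte filament gene, was 298, 355, 511 and 483 CPM in the 4 LPS libraries, against 158, 162, 160 and 160 CPM in the untreated ones. Every LPS library lay above every untreated library, and the untreated libraries were nearly equal, with 412 ± 101 against 160 ± 1.59 CPM (SD, n = 4 each). The log2 fold change was 1.36 (SE 0.182, 2.57-fold, adjusted p = 0.00611).

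Vim could not be read in brain tissue. It was listed at 0 counts in all 8 libraries. It sits in a run of 91 neighbouring protein-coding genes, from chr2:3114224-22940266 (19.8 Mb), that were all at 0 in every brain library, and 15 of these 91 genes had a median over 50 CPM in slice microglia. The run also holds Gad2, the glutamate decarboxylase of inhibitory neurons, which brain tissue expresses. There were 2 further runs of this length on chromosome 1, with 154 and 115 genes, which hold Chil1 and Steap3 and, in the second, Ptgs2, genes of the lists described further on that were not tested in brain tissue for this reason. Of 3568 genes over 50 CPM in slice microglia, 67 were at 0 in all brain libraries and, of 3590, only 1 in all adult microglia libraries. These zeros are therefore taken as values of the table, not as levels of Vim, and no fold change is given.

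**Figure D1:**
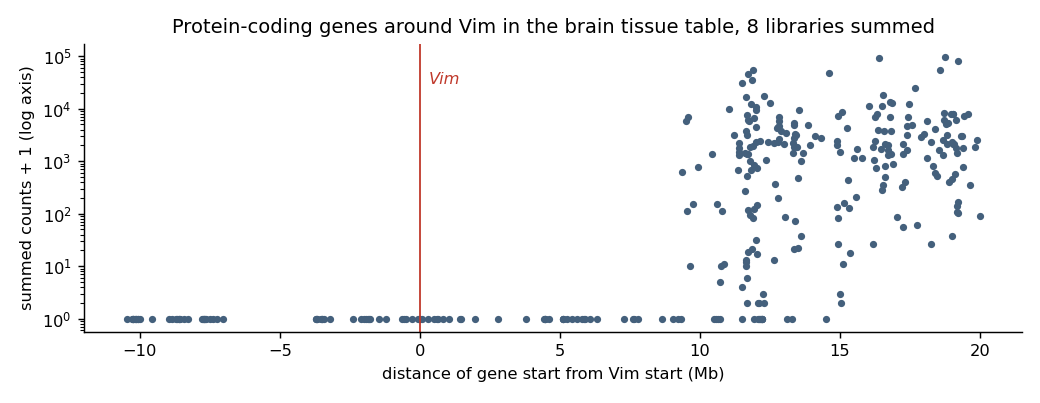
Summed counts over the 8 brain libraries (log axis, counts plus 1) of protein-coding genes around Vim on chromosome 2, by distance from the Vim start in Mb. Each point is a gene; Vim (vertical line) lies inside a stretch of 91 genes that are all at 0, while most genes beyond the right edge of the stretch have counts.

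Among the secreted proteins, Lcn2 went from near 0 to a high level. It was 39.7, 42.6, 179 and 96.7 CPM after LPS and 0.201, 0, 0.310 and 0.104 CPM in the untreated libraries. The groups stood far apart, and the LPS libraries themselves differed 4.50-fold. With only 6 untreated counts in all against 3075 after LPS, the fold is best given as a ratio of rates, 583, with an exact 95% interval from 267 to 1589 that covers counting error only (fitted log2 fold change 9.07, SE 3.91, adjusted p = 0.00734, where the fitted value depends on the treatment of the near-zero group).

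Serpina3n was 63.2, 59.4, 203 and 140 CPM after LPS and 13.5, 12.9, 12.6 and 13.9 CPM in untreated tissue. No library overlapped between groups, at 116 ± 68.7 against 13.2 ± 0.566 CPM (log2 fold change 3.13, SE 0.553, 8.77-fold, adjusted p = 0.015). The call rested on all 4 untreated libraries: without any 1 of them the adjusted p was 0.0542 to 0.0551, with log2 fold changes of 3.11 to 3.16.

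Timp1 was low but clearly separated, at 3.16, 3.54, 7.74 and 7.08 CPM after LPS against 0.302, 0.875, 0.931 and 0.209 CPM. These values are 187 counts against 23, a ratio of rates of 9.24 (exact 95% interval 5.98 to 14.9, for counting error only, while the LPS libraries differed 2.44-fold among themselves), and the fitted log2 value was 3.17 (SE 0.506, adjusted p = 0.000752). Timp1 lies inside Syn1, a neuronal gene on the opposite strand with 38255 counts over the 8 brain libraries. The sources used here do not say whether counting used strand, so reads of the 2 genes may not be separable.

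Of the 3 receptors only Osmr rose. It was 9.28, 7.78, 15.0 and 10.6 CPM after LPS and 2.71, 4.76, 3.93 and 3.76 CPM without it, with no overlap (10.7 ± 3.11 against 3.79 ± 0.841 CPM). The log2 fold change was 1.48 (SE 0.218, 2.79-fold, adjusted p = 0.000516).

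Cd44 was 4.85, 4.01, 4.83 and 4.49 CPM after LPS and 4.22, 3.50, 4.04 and 4.81 CPM in untreated tissue. The groups overlapped and the difference was within the spread (log2 fold change 0.14, SE 0.165, adjusted p = 0.68). S1pr3 was 11.4, 9.43, 8.34 and 12.2 CPM against 8.85, 7.87, 11.7 and 10.2 CPM, again overlapping (log2 fold change 0.11, SE 0.149, adjusted p = 0.735).

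The enzyme genes split by library. Aspg was 3.38, 4.72, 12.8 and 9.21 CPM after LPS and 4.02, 3.50, 3.00 and 2.72 CPM untreated, so that LPS libraries 3 and 4 were well above the untreated range and library 1 lay inside it. Its log2 fold change of 1.17 (SE 0.423) was not called (adjusted p = 0.134), but it was called by DESeq2 (adjusted p = 0.0127) and in edgeR without LPS library 1 (1.42, adjusted p = 0.015).

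Steap4 showed that split more strongly, at 0.211, 0.472, 4.47 and 2.58 CPM after LPS against 0.704, 0.389, 0.517 and 0.313 CPM. LPS library 1 lay below the untreated range and library 2 inside it, while 3 and 4 lay above it. With 66 counts against 19 it was below the filter on low counts, and a fit without that filter gave 1.94 (SE 1.03, adjusted p = 0.416).

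**Figure D2:**
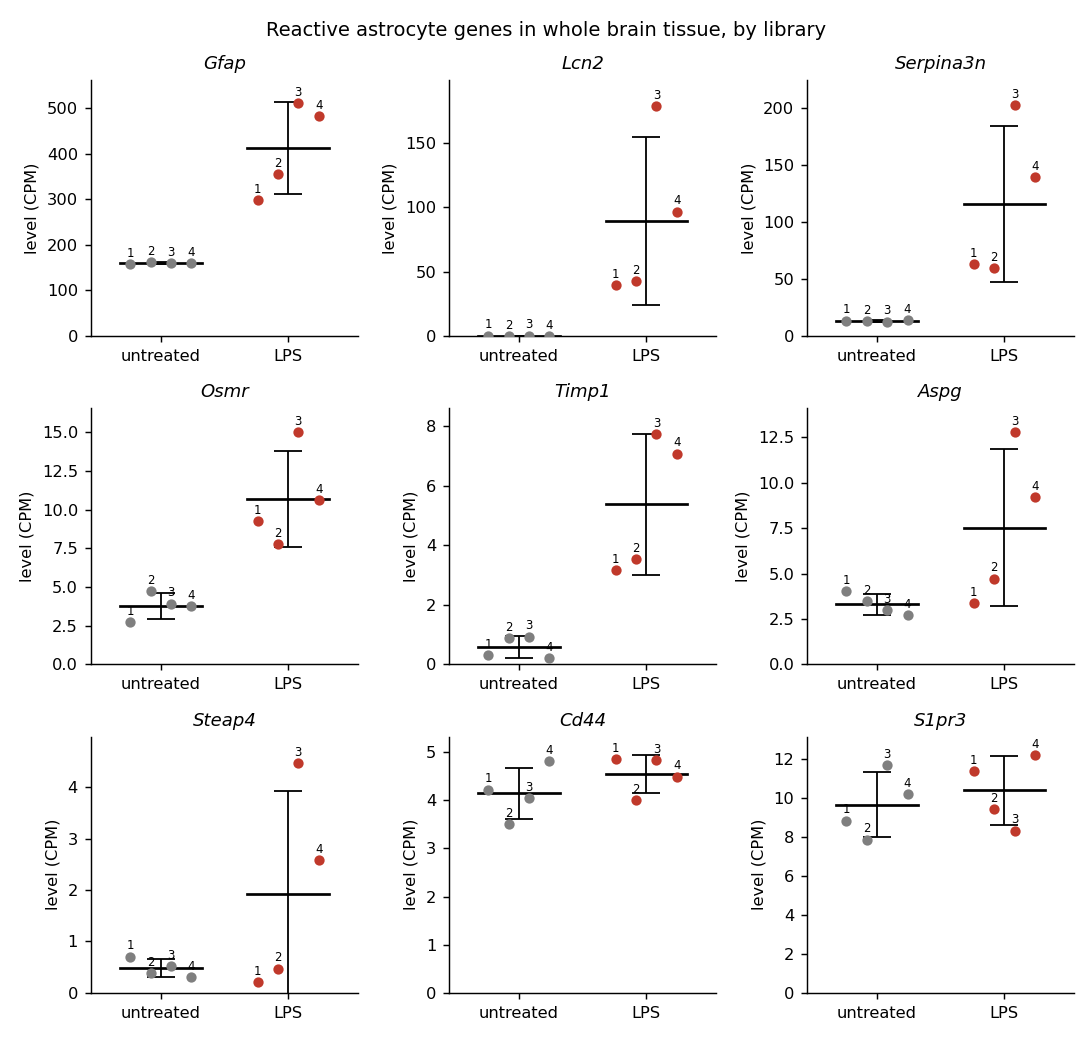
CPM of the 9 members with counts in brain tissue, 1 panel per gene with its own linear axis; points are the 4 LPS and 4 untreated libraries, with replicate numbers, lines are means and error bars SD (the lower end for Steap4 after LPS passes below 0 and is cut at the axis). Gfap, Lcn2, Serpina3n, Osmr and Timp1 do not overlap between groups, and LPS libraries 3 and 4 stand above 1 and 2 for most members.

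Levels of different genes were compared per kb of transcript. In untreated tissue Gfap was highest at 60.4 CPM per kb, Serpina3n followed at 6.41 and S1pr3 at 2.16, and the other members with counts were between 0.152 (Steap4) and 1.22 (Aspg). Lcn2 was at 0.168 CPM per kb. After LPS the order was Gfap at 155, Lcn2 at 97.7 and Serpina3n at 56.4 CPM per kb, with the rest at or below 6.09 (Timp1). The ranges over libraries overlapped between Gfap (113 to 193 CPM per kb), Lcn2 (43.4 to 196) and Serpina3n (28.8 to 98.4) as neighbours in this order, and those of Serpina3n and Timp1 (3.58 to 8.77) did not. In untreated tissue the first 4 (Gfap, Serpina3n, S1pr3 and Aspg) did not overlap with their neighbours. Aspg (0.999 to 1.48 CPM per kb) did overlap with Timp1 (0.237 to 1.05), which stood further down. Each of Cd44, Osmr, Timp1 and Lcn2 overlapped with the next, so the order of neighbours from Cd44 to Steap4 is not resolved. Cd44 and Osmr did lie above Lcn2 and Steap4 in every library, and Timp1 above Steap4.

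LPS libraries 3 and 4 were the 2 highest for all 5 called members and for 6 of the 8 tested, and library 3 was the highest for 6. The same 2 libraries led for 20.2% of all genes tested and for 35.4% of the 396 genes called higher. The ratio of the highest to the lowest LPS library was 4.50 for Lcn2, 3.80 for Aspg, 3.42 for Serpina3n, 2.44 for Timp1, 1.93 for Osmr and 1.71 for Gfap, against 1.47 for S1pr3 and 1.21 for Cd44. Within groups (residuals of log2 CPM from the group means, n = 8 libraries that share normalization), Gfap went with Aspg (r = 0.95), Serpina3n (0.93) and Lcn2 (0.89), less closely with Timp1 (0.75) and Osmr (0.62), and not with Cd44 (0.06) or S1pr3 (-0.21). These correlations describe the libraries and carry no test.

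Over all 8 brain libraries, the genes whose log2 CPM was most like that of Gfap (of 15016 genes) were Cp, with r = 0.995, Lrg1, Grn, Apod and Ccl5, with r from 0.994 to 0.992. For Lcn2 they were Saa3 (0.997), an acute phase protein, Herpud1, Apod, C5ar1 and Lrg1. For Serpina3n they were Lrg1 (0.996), a secreted acute phase glycoprotein, Pla1a, Cp, Cbs and Gfap itself (0.992). These r values span both groups, so the difference between LPS and untreated libraries enters them. Herpud1 and Grn were among these genes with log2 fold changes of 0.27 and 0.55. Between Gfap and Osmr, r was 0.95 over the 8 libraries and 0.62 within groups.

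The other astrocyte genes place these changes. Of 17 genes that mark astrocytes at rest, such as the glutamate transporters Slc1a2 and Slc1a3, all were tested and 1 was called higher, Gjb6, the gap junction protein connexin 30 (log2 fold change 0.70, SE 0.107, adjusted p = 0.002). None was called lower. The median log2 fold change of these genes was 0.00, and the sum of their levels was 6796 to 7103 CPM after LPS and 6538 to 7189 CPM without it. Aqp4, the water channel of astrocyte endfeet, was 110 ± 8.20 against 150 ± 5.18 CPM, which is -0.44 on the log2 scale (SE 0.0525, adjusted p = 5.46e-05), inside the fold limit. In bulk tissue a different number of cells of a type and a different amount of RNA per cell cannot be told apart.

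All 3 further genes known to be shared by several kinds of reactive astrocyte were called higher in brain tissue: the interferon-induced chemokine Cxcl10 (log2 fold change 2.51, SE 0.323, adjusted p = 5.28e-05), Cp, which encodes the copper carrier ceruloplasmin (1.92, SE 0.292, adjusted p = 0.00864), and the small heat shock protein gene Hspb1 (1.52, SE 0.197, adjusted p = 0.000112). Of all genes tested, 2.63% were called higher. Cxcl10 reached the filter on low counts only in the LPS libraries, so its place among the tested genes already rested on a difference. The count of 3 is therefore a description. Cxcl10 did not follow the order of Gfap among the LPS libraries, at 3.69, 4.01, 2.66 and 3.15 CPM, with libraries 3 and 4 lowest. Of 11 genes tied to reactive astrocytes after systemic LPS, 9 were called higher and 0 lower, with a median of 1.19. They included the MHC class I genes H2-D1 (1.47, adjusted p = 2.25e-09) and H2-T23 (1.18, adjusted p = 2.01e-07), the immunoproteasome subunit gene Psmb8 (1.81, adjusted p = 1.78e-05) and the complement inhibitor gene Serping1 (1.47, adjusted p = 1.86e-05). Fkbp5 and Amigo2 of this list were not called (1.07 and 0.33, adjusted p = 0.196 and 0.0836).

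Of 12 genes tied to reactive astrocytes after ischemia, 7 could be tested and 2 were called higher, with a median of 0.11. These were Cd14, the LPS co-receptor gene (1.23, SE 0.287, adjusted p = 0.0103), and the membrane protein gene Emp1 (1.09, SE 0.198, adjusted p = 0.00184). Of 7 other genes often used for reactive astrocytes, 6 were tested and 1 was called, the complement gene C3, at 7.28 to 39.1 CPM after LPS against 0.804 to 1.46 CPM (log2 fold change 4.0, SE 0.93, adjusted p = 0.0239). Like that of Serpina3n, the call of C3 was lost without any 1 untreated library (adjusted p = 0.0738 to 0.0789). Neither C3 nor Cd14 (lowest value 0.828 CPM) reached the filter on low counts in every untreated library. The further intermediate filament genes Nes (0.24, adjusted p = 0.254) and Synm (0.05, adjusted p = 0.858) were not called.

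**Figure D3:**
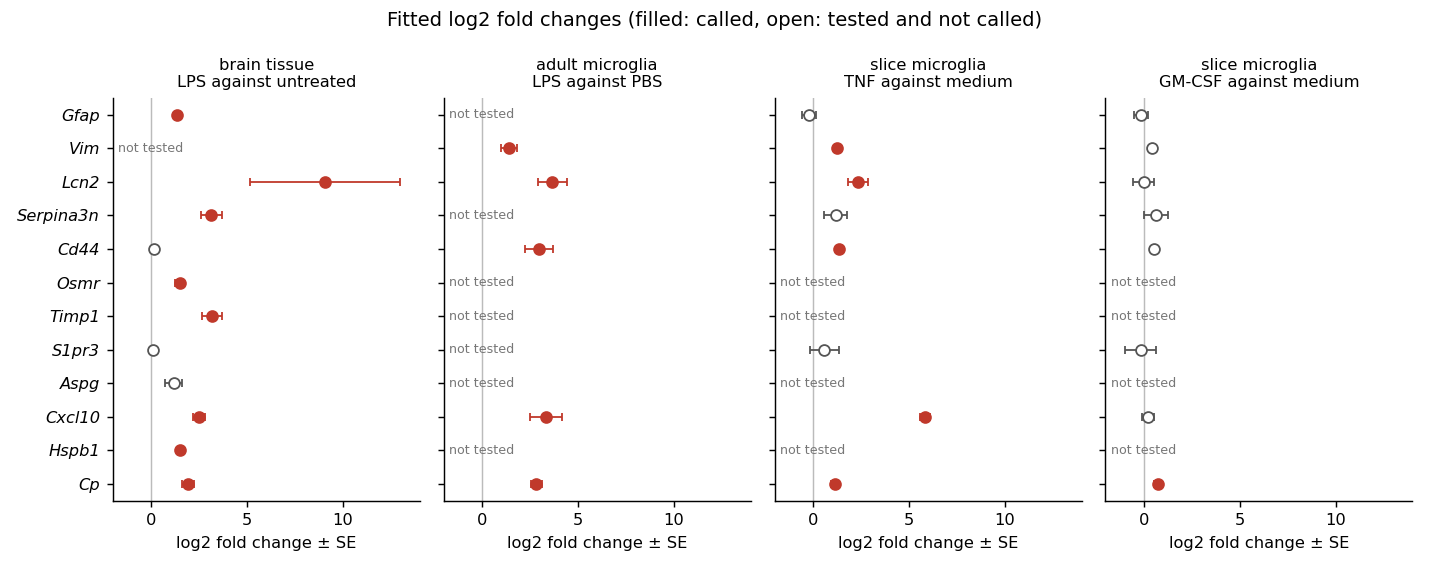
Log2 fold changes with SE for the members and for Cxcl10, Hspb1 and Cp in brain tissue, adult microglia and slice microglia given TNF or GM-CSF, each against its control; filled points were called, and genes too low for a test are marked as not tested (Steap4, tested in none, is left out). In brain tissue Gfap, Lcn2, Serpina3n, Osmr and Timp1 are called and Cd44 and S1pr3 lie near 0, while Cd44 is called in both kinds of microglia.

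In the pathway of Osmr, which signals through gp130 and STAT3, 10 of 16 genes could be tested in brain tissue and 2 were called higher, with a median of 0.06. Socs3, the feedback inhibitor that STAT3 induces, was 7.04 ± 1.65 against 2.20 ± 0.629 CPM (1.67, SE 0.238, adjusted p = 0.00024). Il6ra, the interleukin 6 receptor, was also called (0.80, SE 0.204, adjusted p = 0.0237), but not in 5 of 8 fits without 1 library (LPS libraries 3 and 4 and untreated libraries 1, 2 and 4). Stat3 itself differed by less than the fold limit, at 75.3 ± 5.22 against 55.4 ± 3.52 CPM (0.44, SE 0.0621, adjusted p = 0.000247). Il6st, which encodes gp130, was not called (0.12, adjusted p = 0.219), and the ligand gene Osm was too low for a test, at no more than 0.402 CPM.

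Of 10 genes for microglial signals known to drive astrocyte reactivity and their receptors, 8 were tested and 6 were called higher, with a median of 0.97. They were the complement genes C1qa (1.27, adjusted p = 2.46e-07), C1qb (1.15, adjusted p = 0.000411) and C1qc (0.87, adjusted p = 3.13e-06), the cytokine gene Il1a (1.44, adjusted p = 0.0125) and both TNF receptor genes, Tnfrsf1a (1.04, adjusted p = 0.000122) and Tnfrsf1b (0.90, adjusted p = 0.000612). Of all genes tested, 2.63% were called higher. Il1a, at 0.31 to 1.07 CPM untreated and 1.57 to 2.58 CPM after LPS, reached the filter in every library only after LPS. The count of 6 is therefore a description.

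Of 25 genes that act with the members (receptors, ligands, targets and relatives) 20 were tested, 2 were called higher and 0 lower, with a median of 0.06. Of all genes tested, 2.63% were called higher and 0.55% lower. Mmp3 was too low for a test, at 0.422 to 2.3 CPM in the LPS libraries and 0 in the untreated ones. Spp1, an osteopontin gene whose product binds CD44, was 28.2 ± 3.96 against 15.2 ± 0.422 CPM (0.89, SE 0.0981, adjusted p = 2.64e-05), and Timp4 was 30.4 ± 2.71 against 19.4 ± 3.54 CPM (0.65, SE 0.113, adjusted p = 0.002). Timp4 fell just under the fold limit without LPS library 4 (0.58) or without untreated library 4 (0.57). The lipocalin receptor gene Slc22a17 (-0.04, adjusted p = 0.553) and Timp2 (0.08, adjusted p = 0.275) were not called, and S1pr1, the abundant sphingosine 1-phosphate receptor, was 98.2 ± 8.27 against 130 ± 5.59 CPM (-0.41, SE 0.0568, adjusted p = 0.000243), inside the fold limit. None of the 10 Serpina3 relatives of Serpina3n (Serpina3a to Serpina3m) passed the filter on low counts.

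Markers of other cell types moved with LPS in brain tissue too. The sum of 12 endothelial markers was 396 to 467 CPM after LPS and 325 to 340 CPM without it, that of 9 neutrophil markers with a row 4.96 to 9.77 against 1.57 to 3.21 CPM, and that of 5 border macrophage markers 6.07 to 6.96 against 2.82 to 3.83 CPM, none overlapping. Mrc1, in the run of zeros around Vim, counts as 0 in the last of these. The sum of 10 oligodendrocyte markers was 4875 to 5865 against 6474 to 7057 CPM, and that of 12 microglial markers 314 to 520 against 350 to 397 CPM. LPS library 3, the highest for Gfap, Lcn2 and Serpina3n, had the lowest microglial (314 CPM) and endothelial (396 CPM) sums of the LPS group. The part of these cells in the members' values was not tested. The LPS libraries were also smaller (8199863 to 9452488 counts) than the untreated ones (9641550 to 10368578), and with all libraries thinned to the smallest, 5 members were again called higher, with Gfap at 1.36 and Lcn2 at 9.05.

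In sorted adult microglia only Lcn2, Vim and Cd44 of the 10 members had enough counts for a test, and all 3 were called higher after LPS, with a median log2 fold change of 2.95. The background among 12987 genes was 27.4% called (14.4% up after LPS, 13% down), with a median of 0.01. LPS libraries all lay above PBS libraries for 24.1% of genes. The other 7 members were at or near 0. Gfap was 0.171 to 0.365 CPM after LPS and 0.144 to 0.287 CPM after PBS. Steap4, S1pr3 and Aspg had 0 counts in all 8 libraries, which allows up to 0.211 to 0.263 CPM per library, and Serpina3n, Osmr and Timp1 had 0 counts in all 4 PBS libraries and at most 0.292 CPM in any LPS library. All 12 microglial markers were present (46016 to 53165 CPM after LPS, 65419 to 72276 CPM after PBS). The 17 astrocyte markers summed to 151 to 187 against 262 to 287 CPM, nearly all from Slc1a3.

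Lcn2 in adult microglia was 56.1, 5.91, 37.1 and 75.9 CPM after LPS and 2.44, 3.23, 3.30 and 4.97 CPM after PBS. All LPS libraries lay above the PBS range, but replicate 2 only just (log2 fold change 3.65, SE 0.758, 12.5-fold, adjusted p = 0.00557). Cd44 was 17.4, 1.46, 12.7 and 14.3 CPM against 0.933, 2.30, 0.725 and 1.95 CPM, with LPS replicate 2 inside the PBS range (2.95, SE 0.731, adjusted p = 0.0105). Vim was 7.58, 1.80, 3.07 and 5.0 CPM against 1.01, 1.65, 1.77 and 2.09 CPM, again with replicate 2 inside (1.42, SE 0.412, adjusted p = 0.0125). Without LPS replicate 2 the 3 log2 fold changes were 4.01, 3.31 and 1.68.

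LPS replicate 2 was also lowest for Cxcl10, at 107, 13.7, 41.1 and 73.8 CPM after LPS against 9.55, 10.8, 0.966 and 1.73 CPM (3.34, SE 0.85, adjusted p = 0.0147). Cp, at 21.0 to 41.4 against 2.31 to 4.95 CPM, was separate in every library (2.82, SE 0.288, adjusted p = 3.72e-05). The sum of 10 neutrophil markers was 2.99 to 9.33 CPM after LPS and 41.0 to 84.8 CPM after PBS, and its part in the members' values was not tested. The sum of 5 monocyte markers was 7.71 CPM in LPS replicate 2 and 17.8 to 27.2 CPM in the other LPS libraries. After PBS it was 11.5 to 16.5 CPM. Among the 5 only F13a1 was called higher after LPS (mean 13.3 against 0.677 CPM). Ccr2 (3.68 against 6.47 CPM) and Chil3 (0.268 against 5.24 CPM) were called lower. The sum after LPS thus mainly follows F13a1, and its part in the low values of replicate 2 was not tested.

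**Figure D4:**
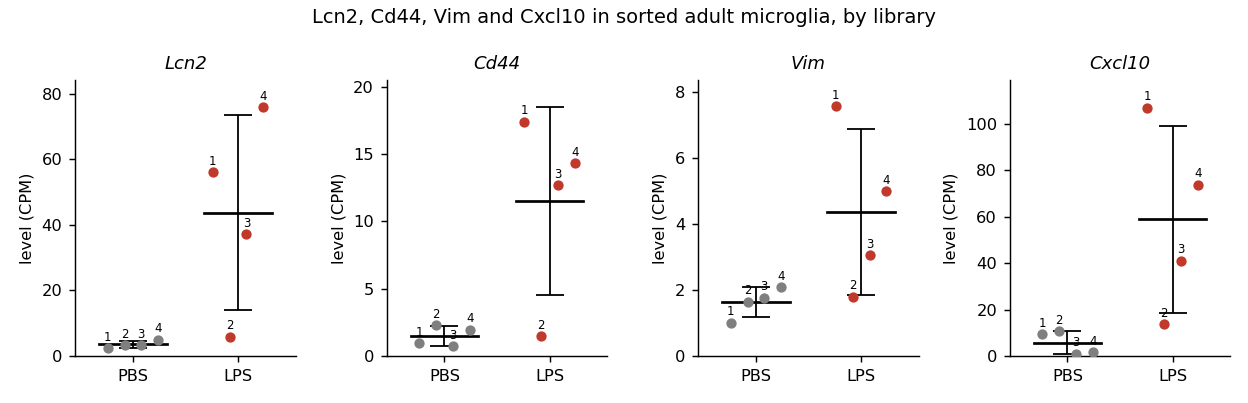
CPM (linear axis from 0) of Lcn2, Cd44, Vim and Cxcl10 in each of the 4 LPS and 4 PBS libraries of sorted adult microglia, with the replicate number above each point, the mean as a line and the SD as an error bar. LPS replicate 2 is the lowest LPS library for all 4 genes and lies inside the PBS range for Cd44 and Vim.

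Among the other lists, 4 of 8 tested genes of the LPS type and 2 of 5 of the ischemia type were called higher in adult microglia, and 1 of the ischemia type, the cytokine gene Clcf1, lower (-1.43, adjusted p = 2.08e-05). Of all genes tested, 14.4% were called higher and 13% lower. Slc10a6, 1 of the 2 of the ischemia type, reached the filter only in the LPS libraries (1.2 to 11.1 against 0.0718 to 0.505 CPM). Its place among the tested genes already rested on a difference, so that count is a description. In the gp130 and STAT3 list 3 of 12 were called higher and 4 lower: Socs3 (3.40, adjusted p = 6.42e-10) and Stat3 (0.76, adjusted p = 3.2e-06) rose, and Il6ra (-0.74, adjusted p = 4.59e-06) and Il6st (-0.59, adjusted p = 0.0013) fell. Of the astrocyte drivers 5 of 10 were called higher, among them Il1b (4.89, adjusted p = 0.000101), Tnf (4.18, adjusted p = 0.000914) and C1qa (0.63, adjusted p = 3.85e-05). Of the members' partners 6 of 14 were called higher and 1 lower. These were led by Spp1, at 87.8 ± 51.2 against 1.26 ± 0.351 CPM (6.10, adjusted p = 0.000343), and Steap3, a relative of Steap4 (2.04, adjusted p = 1.23e-05), while S1pr1 fell (-2.66, adjusted p = 9.06e-05).

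Whether LPS changed a member differently in brain tissue and in sorted microglia was tested as an interaction, over 16676 genes of which 19.7% were called, 10.6% with the higher value in brain and 9.1% with the lower. Only Lcn2 and Cd44 of the members were tested in each table alone. The change of Cd44 was smaller in brain tissue, by 2.80 on the log2 scale (brain minus microglia -2.80, SE 0.761, adjusted p = 0.0102, and -3.15 to -2.53 without any 1 library). For Lcn2 the difference was 5.45 (SE 3.22, adjusted p = 0.0537), not called. It was called without brain LPS library 1 or 2 or microglia LPS library 2 or 4 (5.09 to 5.85, adjusted p = 0.0361 to 0.0427). Of Cxcl10, Hspb1 and Cp, Hspb1 was called, with the higher value in brain (2.32, SE 0.734, adjusted p = 0.015), although it had at most 0.365 CPM in adult microglia and was not tested there alone. It was 3.51 without microglia LPS library 1. Cxcl10 (-0.81, SE 1.68, adjusted p = 0.831) and Cp (-0.89, SE 0.422, adjusted p = 0.13) were not called, but Cp was without brain LPS library 3 (-1.11, adjusted p = 0.0405). Tissue, library kit, sequencing run and the kind of control (no injection or PBS) differed together between the 2 tables and cannot be told apart.

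In microglia sorted from slices, 6 members were tested. With TNF, 3 were called higher, Vim, Cd44 and Lcn2, and 0 lower, against 20.8% of 11313 genes called, 9.1% higher and 11.7% lower. With GM-CSF, 0 of 6 were called against 10.8% of genes, 4.84% higher and 5.96% lower (548 of 1222 called genes were higher, or 814 of 1274 with libraries scaled by total counts alone). Lcn2, Serpina3n and S1pr3 did not reach the filter in every medium library, and Lcn2 did so in every library only with TNF. Of the 6, 2 had an unadjusted p under 0.05 with GM-CSF in edgeR, Vim and Cd44. Both also had an adjusted p under 0.05 (0.0131 and 5.67e-05) and missed only the fold limit. DESeq2 and limma-voom also called 0. Both comparisons used the same 9 medium libraries. The sample titles carry codes (1A, 1B, 2A and 2B) whose meaning the labels do not give, and values within codes 1A and 1B and within 2A and 2B are given beside the pooled ones.

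Vim was abundant here, with a lowest, median and highest value of 118, 156 and 236 CPM in medium, 277, 399 and 518 CPM with TNF and 159, 232 and 320 CPM with GM-CSF. Every TNF library lay above every medium library (log2 fold change 1.25, SE 0.127, adjusted p = 7.81e-10), which held for 6.25% of all genes (2.93% with GM-CSF). It was 1.29 within codes 1A and 1B and 1.28 within 2A and 2B. The change with GM-CSF, 0.44 (SE 0.133, adjusted p = 0.0131), was under the fold limit.

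Cd44 was 76.8, 93.6 and 118 CPM in medium, 198, 241 and 333 CPM with TNF and 113, 135 and 159 CPM with GM-CSF. The TNF libraries lay above all others (1.35, SE 0.0904, adjusted p = 2.68e-14, and 1.35 and 1.40 within codes). GM-CSF gave 0.53 (SE 0.095, adjusted p = 5.67e-05), under the fold limit with TMM scaling and over it with total counts (0.63). TNF against GM-CSF was 0.82 (SE 0.09, adjusted p = 3.65e-09) for Cd44 and 0.81 (SE 0.13, adjusted p = 4.35e-06) for Vim.

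Lcn2 was much lower, at 0.108, 1.07 and 5.34 CPM in medium, 3.69, 9.74 and 21.3 CPM with TNF and 0.400, 1.46 and 5.91 CPM with GM-CSF. The TNF and medium libraries overlapped at their ends (2.35, SE 0.507, adjusted p = 0.00046). Within codes 1A and 1B the value was 4.21 (adjusted p = 0.000235), and within 2A and 2B 1.75 (adjusted p = 0.0432). TNF was above GM-CSF by 2.35 (SE 0.51, adjusted p = 0.000589). The GM-CSF change was 0.00 (SE 0.553, adjusted p = 0.997).

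Gfap had counts in every slice library, while Serpina3n and S1pr3 were low, and none of the 3 passed the test. Gfap was 14.3 to 45.6 CPM in medium, 2.77 to 48.0 CPM with TNF (-0.19, SE 0.357, adjusted p = 0.709) and 5.35 to 42.2 CPM with GM-CSF (-0.15, SE 0.374, adjusted p = 0.821). Serpina3n was 0 to 4.65 CPM in medium and 0.609 to 7.33 CPM with TNF (1.19, SE 0.598, adjusted p = 0.118). It was called under limma-voom (1.95, adjusted p = 0.0232) and with the code in the sample titles as a term (1.51, adjusted p = 0.0412), but not within codes 1A and 1B (1.15, adjusted p = 0.299) or within 2A and 2B (1.29, adjusted p = 0.336). S1pr3 was 0 to 7.76 CPM over all slice libraries and was not called with TNF (0.60, SE 0.737, adjusted p = 0.558).

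Timp1 was above 0 in 11 of 11 TNF libraries and in 3 of 9 medium libraries, with 126 counts against 14. The ratio of rates was 7.57 (exact 95% interval 4.35 to 14.2, for counting error only). Medium library 8 alone held 10 of the 14 medium counts, and the TNF libraries had 3 to 28 counts each. Timp1 thus varied between libraries by more than that interval covers. It was under the filter on low counts, and a fit without the filter gave 2.87 (SE 0.888, adjusted p = 0.019). Steap4 was above 0 in 7 of 11 TNF and 1 of 9 medium libraries, with 56 counts against 10 and a ratio of 4.71 (2.38 to 10.4), an interval for counting error only. Osmr was above 0 in 1 TNF and 1 medium library, and Aspg was at 0 in all 29, which allows up to 0.327 to 0.502 CPM per library.

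**Figure D5:**
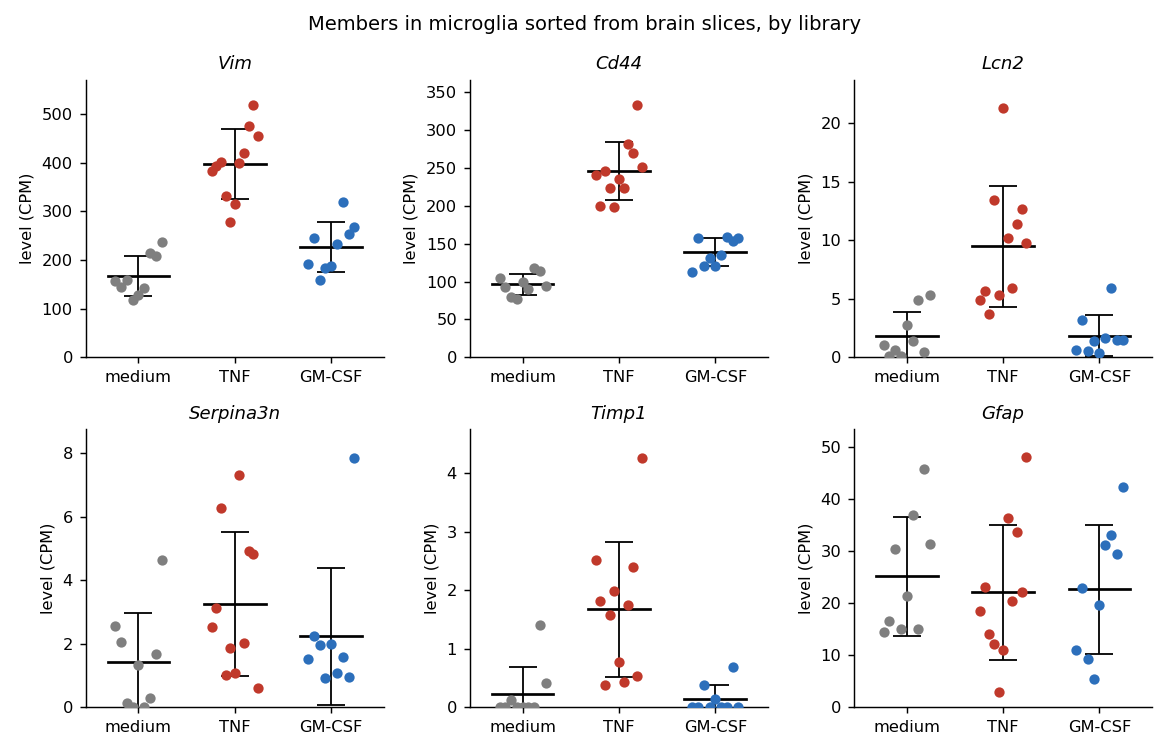
CPM of members in slice microglia given medium (9 libraries), TNF (11) or GM-CSF (9), for Vim, Cd44, Lcn2, Serpina3n, Timp1 and Gfap, 1 panel per gene with a linear axis from 0, each library as a point, the mean as a line and the SD as an error bar (lower ends below 0 are cut). For Vim and Cd44 all TNF points lie above all medium points, while Gfap overlaps between the 3 treatments.

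The 17 astrocyte markers summed to 87.2 to 169 CPM in medium, 103 to 148 CPM with TNF and 60.4 to 134 CPM with GM-CSF, small beside the 12 microglial markers (26314 to 37302, 14057 to 17588 and 19534 to 22025 CPM). Most of this sum was Ndrg2 (means of 75.6, 70.2 and 40.9 CPM in medium, TNF and GM-CSF) and Slc1a3 (33.5, 16.0 and 13.2 CPM), and Slc1a3 was also 271 CPM in adult microglia after PBS. Slc1a2, Gja1 and Aqp4 had means of 1.20 to 5.21 CPM. In this list 2 of 11 genes tested were called higher with TNF (Acsbg1 and Mlc1, neither within codes 1A and 1B) and 1 lower (Slc1a3), and with GM-CSF 2 were called lower (Slc1a3 and Ndrg2). Within treatments (residuals of log2 CPM, n = 29 libraries), the summed astrocyte markers had r = -0.49 with Vim, -0.51 with Cd44, -0.26 with Lcn2 and -0.19 with Gfap. Since Ndrg2 and Slc1a3 make up most of that sum, these r values mainly follow those genes. The part of astrocyte material in the members' values was not tested. The border macrophage markers summed to 219 to 628 CPM in medium, 181 to 866 CPM with TNF and 175 to 434 CPM with GM-CSF. Of these 5 markers Mrc1 and Lyve1 were called lower with TNF and Ms4a7 with GM-CSF, and 0 were called higher. The part of border macrophages in Vim, Cd44 and Lcn2 was not tested.

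Other reactive astrocyte genes also changed in slice microglia. Cxcl10 was 2.74, 10.8 and 18.5 CPM in medium and 494, 536 and 668 CPM with TNF (lowest, median and highest; 5.84, SE 0.26, adjusted p = 8.02e-16), and 5.09 to 26.2 CPM with GM-CSF (0.22, adjusted p = 0.649). Cp rose with TNF (1.13, SE 0.181, adjusted p = 5.2e-06) and with GM-CSF (0.72, SE 0.19, adjusted p = 0.00401), the second not called within codes 1A and 1B (0.62, adjusted p = 0.106), and Hspb1 was too low for a test in both kinds of microglia. Serpina3g, the 1 relative of Serpina3n that could be tested, rose with TNF (4.22, adjusted p = 0.000483). Serpina3g reached the filter in no medium library (at most 0.958 CPM), so its place among the tested genes already rested on a difference. With TNF 5 of 8 genes of the LPS type were called higher, such as Gbp2 (5.67, adjusted p = 8.37e-15) and H2-T23 (1.86, adjusted p = 7.05e-15), and 7 of 10 of the ischemia type, such as Ptgs2, which makes prostaglandins (3.01, adjusted p = 8.42e-08), and Cd14 (1.72, adjusted p = 1.15e-20), with 1 of the 10, Clcf1, called lower. Of all genes tested, 9.1% were called higher with TNF. Among the 7, Ptx3 reached the filter in no medium library (at most 0.238 CPM), and Ptgs2, Slc10a6, Sphk1 and Tgm1 not in all of them. These counts are therefore descriptions. C3 rose with TNF (2.16, SE 0.278, adjusted p = 3.55e-07) and was called lower with GM-CSF (-1.25, adjusted p = 0.00297), a call lost under limma-voom and within each pair of title codes (adjusted p = 0.0589 to 0.118). With GM-CSF 1 of 8 genes of the LPS type was called higher and 2 lower, and H2-T23 fell (-0.89, adjusted p = 9.41e-07). In the gp130 list Il6 rose with both TNF (4.45, adjusted p = 8.54e-15) and GM-CSF (3.84, adjusted p = 2.97e-12), while Socs3 was called with TNF (1.54, adjusted p = 2.53e-11). S1pr1 fell with TNF (-1.63, adjusted p = 1.14e-15) and with GM-CSF (-1.37, adjusted p = 2.74e-12).

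Side by side, Gfap, Serpina3n, Osmr, Timp1, Steap4, S1pr3 and Aspg had counts in every brain library and were at or near 0 in adult microglia. In slice microglia Gfap had counts in every library, with group means of 22 to 25.1 CPM. Serpina3n, S1pr3, Timp1 and Steap4 had counts in part of the slice libraries, Osmr in 1 TNF and 1 medium library, and Aspg in none. Lcn2 was called higher in brain tissue after LPS, in adult microglia after LPS and in slice microglia with TNF. Vim was called in both kinds of microglia and could not be read in brain tissue. Cd44 was called in both kinds of microglia and not in brain tissue. Levels in different tables differ by kit, read layout and run, so they were set beside each other without a test.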

How the data were processed

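RNA-seq of 45 libraries in 7 groups came as 3 tables. The expected counts per gene for brain tissue (TruSeq mRNA) and adult microglia (SMART-Seq v4 and Nextera XT) were estimated by the authors before deposit, with 69680 and 70872 values not whole, and were rounded here. The deposited slice microglia table (SMART-Seq v4 and Nextera XT) holds whole counts, and per the labels STAR 2.7.0a and featureCounts (Subread 1.6.4) made it. The build was mm10. The sources used here do not name the tools of the other tables, the annotation or the use of strand. Totals per library were 8199863 to 10368578 (brain), 11391564 to 14216005 (adult) and 5973364 to 9165485 (slices). Each table was fitted alone in edgeR 4.0.16 (R 4.3.3): TMM, filterByExpr (minimum count 10, minimum total 15), quasi-likelihood F test with robust estimation, Benjamini-Hochberg over all genes tested. Genes were called at adjusted p under 0.05 and fold change over 1.5. The interaction used both LPS tables joined. Replicates differed by more than counting noise (chi-square per degree of freedom at least 1.77), with 0 identical pairs. Groups came from the labels. Scripts were tested on simulated data. Alternatives were DESeq2 1.42.0, limma-voom 3.58.1, other scaling and filters, a replicate block, title codes and leaving out each library. The 10 members, Cxcl10, Hspb1 and Cp are always named, and of each other list at most 4 called genes with the smallest p, with receptors and partners of the members; Aqp4, Fkbp5, Amigo2, Nes, Synm and further astrocyte drivers were named after their values were seen. The members and lists were chosen with earlier results of these data known. Promoters are from RefSeq.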

Additional observations from a re-analysis of the deposited data

Results flagged for a closer look

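In slice microglia given GM-CSF, 4 values stood far from the other 8 libraries of the group by Dixon's criterion. Lcn2 was 5.91 CPM in replicate 7, Serpina3n 7.86 CPM and S1pr3 5.09 CPM in replicate 9, and Cxcl10 26.2 CPM in replicate 5. The other GM-CSF libraries lay at 0.400 to 3.18 CPM for Lcn2, 0.917 to 2.23 CPM for Serpina3n, 0 to 2.32 CPM for S1pr3 and 5.09 to 13.9 CPM for Cxcl10. In all, 48 groups of 4 to 10 libraries were examined and 4 passed, where chance marks about 1 in 20.

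The LPS effect on Cd44 differed between brain tissue and sorted adult microglia by the interaction term, brain minus microglia -2.80 on the log2 scale (SE 0.761, adjusted p = 0.0102). Cd44 was 4.01 to 4.85 CPM in the LPS brain libraries and 1.46 to 17.4 CPM in the LPS microglia. The interaction was also called for Hspb1, at 2.32 (SE 0.734, adjusted p = 0.015), a gene at 7.19 to 13.2 CPM in the LPS brain libraries and at most 0.365 CPM in adult microglia.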

How the results depend on the processing

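Without the fold limit the counts of called genes rose to 1533 (brain), 6703 (adult microglia), 4476 (TNF), 2892 (GM-CSF) and 5136 (interaction), and GM-CSF members from 0 to 2 (Vim and Cd44). GM-CSF gave 785 genes with title codes 2A and 2B alone, and 1 member, Cd44, with total counts. Interaction members called were 1 to 2 without 1 library. Values that changed sign were all uncalled: with codes 2A and 2B Gfap gave 0.09 (TNF) and 0.06 (GM-CSF) and Lcn2 -0.42 (GM-CSF). With codes 1A and 1B Cxcl10 gave -0.36 (GM-CSF), with the code as a term S1pr3 gave 0.05 (GM-CSF), and in brain Sphk1 gave -0.17 to 0.03 without 1 library (0.03 without LPS replicate 2). Replicate numbers did not pair libraries (r of same-numbered residuals -0.08 to 0.04 in brain, -0.05 to 0.03 in adult microglia, -0.05 to 0.19 in slices). The replicate block gave 448 genes in brain and 3452 in adult microglia, with 5 and 2 members, and 2423 (TNF) and 1258 (GM-CSF) in slices, with 4 and 0 members. It ended the adult calls of Cd44 (2.72, adjusted p = 0.0823), Cxcl10 (3.34, adjusted p = 0.0835) and Ndrg2 and the GM-CSF call of Il6st and made Serpina3n called with TNF (1.58, adjusted p = 0.0342). In brain 5 members were called under each other setting that kept all libraries and 6 with DESeq2. Scaling by total counts moved 0 of 55 group means by 1 SD or more.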
